A study of Mus musculus with 5 samples.

Results

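The Sfmbt2 intron miRNA cluster is a dense array of related miRNA genes of the mouse, and its members were followed here through 5 small RNA libraries of the germ line. Members were taken by name: every entry of the miRNA tables, of either arm, named miR-297, miR-466, miR-467 or miR-669, with any letter or none. This gave 74 members of 1316 miRNA entries, of which 6 were miR-297, 29 miR-466, 12 miR-467 and 27 miR-669 entries. No measured value entered the choice. Of the 74 members, 62 had all their annotated precursors in Sfmbt2, 4 had some there and 8 had none, so the name rule also takes in relatives from outside the cluster.

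A miRNA is cut from a hairpin in a longer transcript by Drosha and then by Dicer, and either arm of the hairpin, named 5p or 3p, can be loaded into an Argonaute protein. The loaded miRNA finds its targets mainly through the seed, bases 2 to 8 from its 5′ end. Sfmbt2 codes for a protein with MBT domains of the Polycomb group and is imprinted in the mouse, being read from the paternal copy in extraembryonic tissues, where the intronic cluster is known to be needed for growth of the placenta. The cluster is a rodent feature, and its miRNAs are also known from mouse embryonic stem cells.

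Each cell type was represented by 1 library of total RNA, sequenced as reads of 18 to 32 nucleotides. Zygotes, 15416 in number, were collected 15 to 18 hours after fertilization, from C57BL/6 mothers and DBA/6J fathers. Primordial germ cells (PGCs) came from gonads of male CD-1 fetuses at 13.5 days post coitum and were captured on anti-CD15 beads. Spermatogonia came from CD-1 testes 8.5 days after birth, left in the supernatant while somatic cells adhered, with Stra8 present and Fn1 absent. Spermatozoa came from the cauda epididymis and vas deferens of mature CD-1 males, through a Percoll gradient and a hypo-osmotic shock. Oocytes at metaphase II, 15210 in number, came from C57BL/6 females. All egg donors were 4 to 5 weeks old and superovulated with pregnant mare serum and human chorionic gonadotropin, and oocytes and zygotes were freed of cumulus cells and zona. Strain and preparation differ between the eggs and the male germ cells and cannot be told apart from cell type.

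The miRNA tables held 2327081 reads in the zygote library, 12004614 in PGCs, 10657432 in spermatogonia, 1216358 in spermatozoa and 2010462 in the oocyte library. Levels are given as reads per 1000000 miRNA reads of the library (RPM), so 3 reads, the limit that a count of 0 allows, correspond to 1.29, 0.250, 0.281, 2.47 and 1.49 RPM in the same order. Brackets hold exact 95% intervals, which cover counting error only, since PCR copies of a read are not independent molecules. With 1 library per cell type there is no replicate check and no test between cell types. In a comparison an entry is called measured where both libraries together hold at least 100 of its reads, and it is counted as higher or lower from 4-fold on. Fewer cells of a kind and less RNA per cell cannot be told apart in these bulk libraries.

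Mature sequences were taken from the RefSeq miRNA table (build GRCm38.p6), in which 7 of the 74 members were matched by name. They belong to relatives outside Sfmbt2. miR-466i-3p, the partner of one of the most abundant members in spermatozoa, is shown with 1 more relative from each of the families miR-466, miR-467 and miR-669. Their seeds are in capitals, and the lines show the alternating bases that make these miRNAs look alike.
miR-466i-3p: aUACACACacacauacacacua
miR-466k: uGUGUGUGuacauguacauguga
miR-467f: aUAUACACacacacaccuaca
miR-669n: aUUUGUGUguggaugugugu
The first lies at chr13:17747552-17747573 on the plus strand, miR-466k at chr3:85467396-85467418 on the plus strand, miR-467f at chr11:69635419-69635439 on the minus strand and miR-669n at chr3:115979905-115979924 on the plus strand. An unbroken alternation of C with A, or of U with G, over at least 8 bases occurred in 6 of the 7 matched members and in 13 of the 1679 mature sequences of the table (0.774%). All 7 seeds were distinct, and no other mature sequence in the table shared one. The other members were not matched, so their seeds and runs could not be compared. Neither the count of 13 nor the lack of shared seeds covers them. The search read the miRNA strand only.

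In GRCm38 (GENCODE vM21) Sfmbt2 lies on the plus strand of chromosome 2, from 10370510 to 10595253. Of 82 annotated precursors of these 4 families, 72 lay within it, all in the sense direction: 5 of miR-297, 24 of miR-466, 14 of miR-467 and 29 of miR-669. They sat in a single intron of 62472 bp, from 10461473 to 10523944, which is intron 10 of transcript ENSMUST00000041105.6 and intron 11 of ENSMUST00000116594.8. From the start of the first precursor at 10466663 to the end of the last at 10518279 the array spanned 51617 bp. The families alternated along it, as the map of the precursors shows. The 10 precursors of miR-467a followed each other at a median distance of 2462 bp, with a range of 2413 to 4880 bp. Outside Sfmbt2 lay 10 precursors, among them miR-466i at chr13:17747473-17747593 and 1 of the 4 precursors of miR-466f, at chr13:71107089-71107209.

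**Figure D1:**
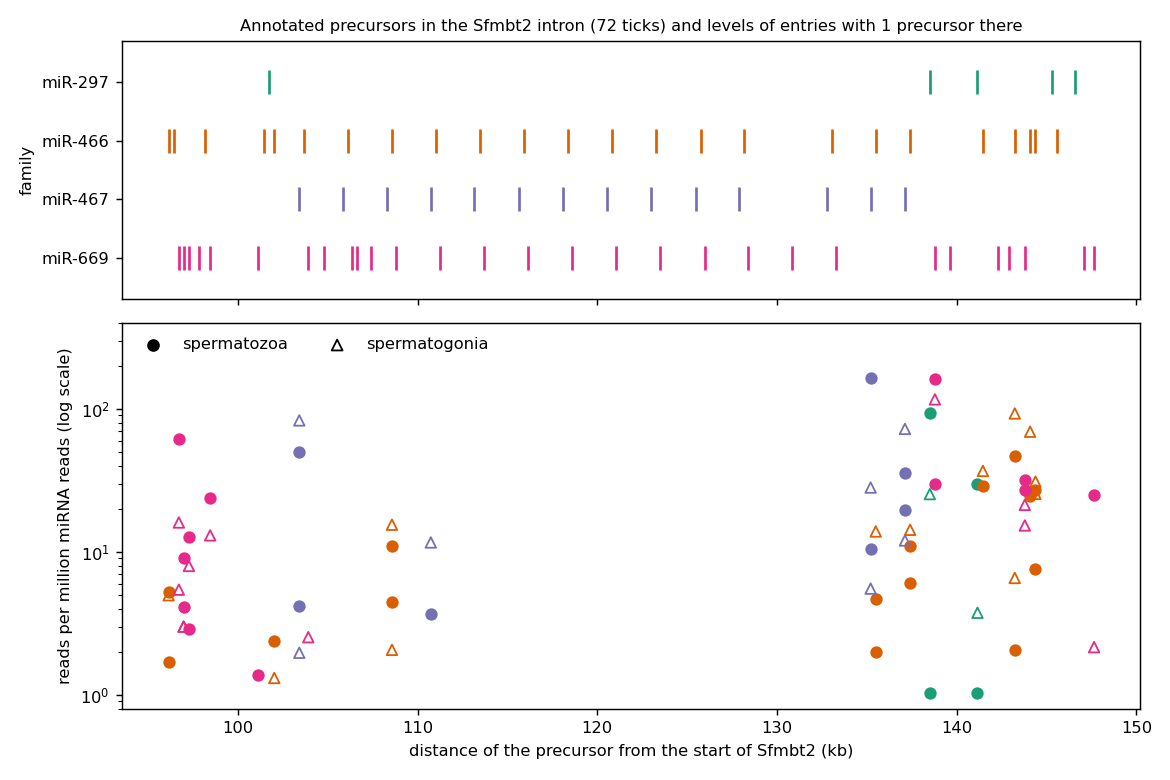
Upper panel, the 72 annotated precursors of the 4 families by their distance in kb from the start of Sfmbt2, 1 tick each. Lower panel, levels in RPM on a log scale of entries with a single precursor in the intron, in spermatozoa (filled circles) and spermatogonia (open triangles), coloured by family; entries at 0 reads or under the axis are not drawn. Both ends of the array hold entries above and below 10 RPM, and the middle holds mostly copies of miR-466, miR-467 and miR-669 that have several precursors and so no point.

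Some entries of near-identical hairpins did not have independent read numbers. Entries of several precursors had reads in a fixed ratio in all 5 libraries, to within 1% once 0.5 reads of rounding were allowed in spermatogonia: 12 entries formed 5 such groups. miR-669a-3p and miR-669o-3p stood at 11 to 1, where their annotated precursors stand at 12 to 1. miR-669a-5p and miR-669p-5p stood at 6 to 1, with 12 and 2 precursors. miR-466b-3p, miR-466c-3p and miR-466p-3p stood at 8 to 2 to 1, with 8, 3 and 1 precursors. Entries of such a group have no values of their own, and which hairpin gave the reads is not known. Counts of members and of hairpin names take such entries one by one, so a group can be counted more than once. In the zygote, PGC, spermatozoa and oocyte libraries, 67.7%, 75.9%, 86.3% and 73.3% of the members' reads fell on entries with fractional read numbers, whereas the spermatogonia table held whole numbers only. One group crosses families: miR-669m-5p and miR-466m-5p, both at or below 3.41 RPM, stood at 2 to 1. Reads may also be shared between families outside the fixed-ratio groups. miR-466h-5p, in none of them, had the same fractional reads as miR-466m-5p in zygotes (1.03) and oocytes (0.143). Sums over families do not depend on how reads were divided within a family, but can depend on reads shared between families. They are given beside the entries.

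Summed over all 74 members, the cluster made up a small share of the miRNA reads in every library, and its level set the libraries in 3 tiers. It stood at 285 RPM [264 to 307] in zygotes, 1951 RPM [1926 to 1976] in PGCs, 1936 RPM [1909.9 to 1963] in spermatogonia, 5451 RPM [5321 to 5584] in spermatozoa and 270.3 RPM [248 to 293.8] in oocytes. As a share of miRNA reads this was 0.0285%, 0.195%, 0.194%, 0.545% and 0.0270% in the same order. The eggs thus lay lowest, the fetal and postnatal male germ cells in between with overlapping intervals, and spermatozoa highest. Scaled to the reads of all 4 classes reported for a library (miRNAs, snoRNAs, piRNAs and endogenous siRNAs), the sums per 1000000 reads were 15.3 in zygotes, 881.5 in PGCs, 783 in spermatogonia, 304 in spermatozoa and 12.6 in oocytes. On that scale spermatozoa lay below both earlier male stages, so their place at the top is a statement about the share of miRNA reads only.

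**Figure D2:**
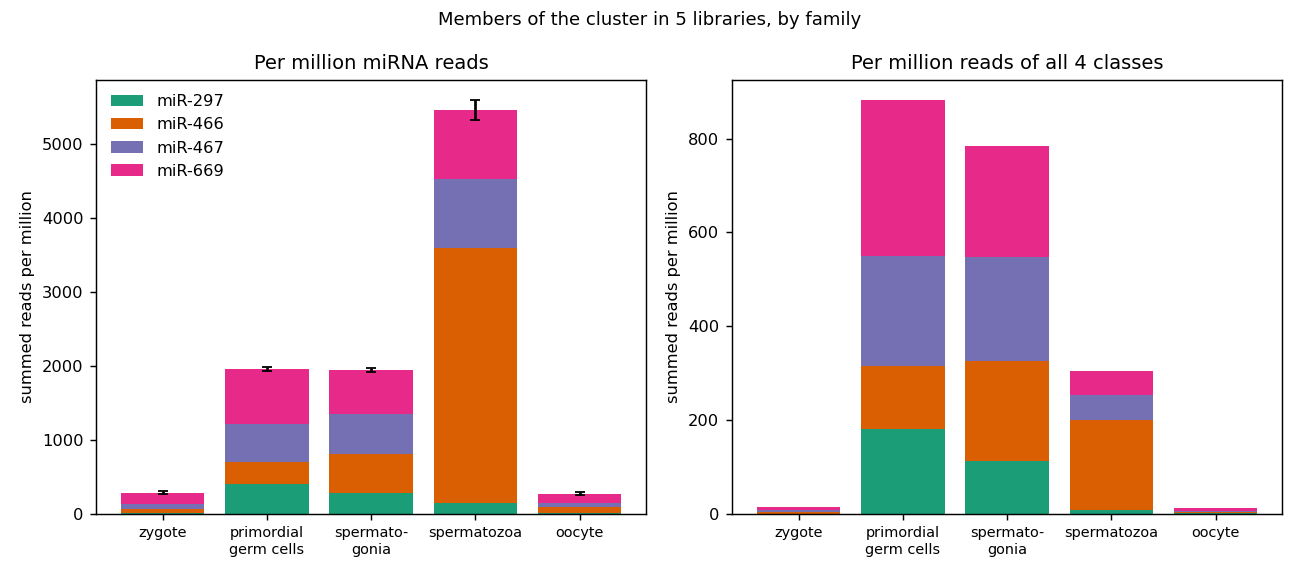
Summed levels of the 4 families in the 5 libraries, stacked by family, in RPM (left, bars of error being the exact 95% interval of the cluster sum, counting error only) and scaled to 1000000 reads of all 4 classes (right). Spermatozoa stand highest on the left, at 5451, with miR-466 as most of the bar, and below PGCs and spermatogonia on the right, at 304 against 881.5 and 783.

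The families were not present in the same mix. The miR-669 family, the largest in precursors, was at 155.5 RPM in zygotes, 733 in PGCs, 585 in spermatogonia, 923 in spermatozoa and 130.3 in oocytes. It supplied 54.6% of the members' reads in zygotes and 48.2% in oocytes, but 16.9% in spermatozoa. The miR-467 family was at 66.1 RPM in zygotes, 521 in PGCs, 543.8 in spermatogonia, 935 in spermatozoa and 44.9 in oocytes. Both families lay higher in each of the 3 male libraries than in either egg library. The miR-297 family was at 9.02 RPM in zygotes, 399 in PGCs, 276 in spermatogonia, 147 in spermatozoa and 16.4 in oocytes. In RPM it was the only one of the 4 to be highest in PGCs. Most of its sum there was miR-297a-5p, at 328.5 RPM in PGCs and 19.1 RPM in spermatozoa. Scaled to the reads of all 4 classes, miR-467 and miR-669 were highest in PGCs too. They stood at 235.5 and 331 in PGCs, against 220 and 237 in spermatogonia. The miR-466 family was at 54.1 RPM in zygotes, 297.03 in PGCs, 531 in spermatogonia, 3447 in spermatozoa and 78.6 in oocytes. It held 63.2% of the members' reads in spermatozoa and between 15.2% and 29.1% in the other libraries.

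Most of the miR-466 excess in spermatozoa came from a pair of entries. miR-466f-3p had 1.96 RPM in zygotes, 8.94 in PGCs, 8.82 in spermatogonia, 2625 in spermatozoa and 4.32 in oocytes. miR-466i-5p had 2.36 RPM in zygotes, 0.908 in PGCs, 1.78 in spermatogonia, 511 in spermatozoa and 5.46 in oocytes. Both were high in spermatozoa and under 10 RPM in the other 4 libraries, and together they held 57.5% of the members' reads in spermatozoa, against 0.505% to 3.62% elsewhere. Of the 4 precursors of miR-466f, 3 lie in Sfmbt2, and the only annotated precursor of miR-466i lies outside it, so their reads cannot be assigned to the intron. Set apart after their values were seen, they left a cluster sum of 280.4 RPM in zygotes, 1941 in PGCs, 1926 in spermatogonia, 2315 in spermatozoa and 260.5 in oocytes. Without the pair the miR-466 family stood at 49.8 RPM in zygotes, 287 in PGCs, 521 in spermatogonia, 311 in spermatozoa and 68.9 in oocytes, which makes spermatogonia its highest library.

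Sorted by where the precursors lie, the members showed the same division. The 62 entries with all precursors in Sfmbt2 summed to 272 RPM in zygotes, 1593 in PGCs, 1657 in spermatogonia, 2254 in spermatozoa and 250.4 in oocytes. The 4 entries with some precursors there, the arms of miR-297a and miR-466f, summed to 9.59 RPM in zygotes, 349 in PGCs, 259 in spermatogonia, 2646 in spermatozoa and 12.5 in oocytes. The 8 entries with no precursor in Sfmbt2 summed to 3.22 RPM in zygotes, 8.22 in PGCs, 19.9 in spermatogonia, 552 in spermatozoa and 7.35 in oocytes. Spermatozoa lay 9.001-fold above oocytes for the first of these sums, 211-fold for the second and 75.0-fold for the last.

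The abundant members described next have all their precursors in the intron. miR-467a-5p, whose 10 precursors are spread along the array, had 44.5 RPM in zygotes, 305 in PGCs, 327 in spermatogonia, 569 in spermatozoa and 28.9 in oocytes. miR-669a-3p, with 12 precursors, had 82.6 RPM in zygotes, 388 in PGCs, 234 in spermatogonia, 350.4 in spermatozoa and 70.4 in oocytes, and was the most abundant member in both egg libraries and in PGCs. Its other arm, miR-669a-5p, had 11.4 RPM in zygotes, 46.8 in PGCs, 88.2 in spermatogonia, 65.5 in spermatozoa and 12.8 in oocytes. These entries were present throughout and kept eggs below male germ cells.

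miR-669c-5p comes from 1 precursor and had 28.8 RPM in zygotes, 74.4 in PGCs, 116 in spermatogonia, 163 in spermatozoa and 22.9 in oocytes, higher at each male stage on this scale. miR-467e-5p, also of 1 precursor, had 4.73 RPM in zygotes, 39.9 in PGCs, 28.1 in spermatogonia, 164 in spermatozoa and 3.48 in oocytes. miR-467c-5p and miR-467d-5p ran the other way at the last stage. miR-467c-5p had 3.44 RPM in zygotes, 89.5 in PGCs, 82.9 in spermatogonia, 50.1 in spermatozoa and 1.49 in oocytes. miR-467d-5p had 7.74 RPM in zygotes, 45.0 in PGCs, 72.3 in spermatogonia, 35.4 in spermatozoa and 4.48 in oocytes. The 5p entries of these miR-467 hairpins, all in the intron, thus did not share 1 profile. Their 3p entries all had more RPM in spermatozoa than in spermatogonia, but on few reads in spermatozoa. miR-467c-3p had 4.15 against 1.97 RPM (2.11-fold [0.615 to 5.68]), miR-467d-3p 19.5 against 12.0 RPM (1.62-fold [1.02 to 2.55]) and miR-467e-3p 10.5 against 5.54 RPM (1.89-fold [0.971 to 3.56]). The intervals of miR-467c-3p and miR-467e-3p include 1, so a direction common to these 3p entries is not established.

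The miR-297 family was carried by its 5p arms. miR-297a has 3 of its 4 precursors in Sfmbt2, so its reads cannot be assigned to the intron either. miR-297a-5p had 6.88 RPM in zygotes, 328.5 in PGCs, 246 in spermatogonia, 19.1 in spermatozoa and 5.97 in oocytes, so spermatozoa lay near the eggs. miR-297c-5p had 1.29 RPM in zygotes, 52.8 in PGCs, 25.3 in spermatogonia, 93.7 in spermatozoa and 5.97 in oocytes. miR-297b-5p had 0 reads in zygotes and oocytes, and 14.1 RPM in PGCs, 3.75 in spermatogonia and 29.6 in spermatozoa. The last 2 entries, with 1 precursor each in the intron, were highest in spermatozoa, where miR-297a-5p was low.

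Of 18 miR-466 entries with at least 100 reads in some library, 10 were highest in spermatogonia, 4 in PGCs and 4 in spermatozoa, the last including the pair. Over all 29 entries these counts were 11, 7 and 11. Among those highest in spermatogonia, miR-466b-3p, miR-466c-3p and miR-466p-3p form a fixed-ratio group and are counted singly. miR-466b-3p had 19.9 RPM in zygotes, 54.2 in PGCs, 111 in spermatogonia, 37.7 in spermatozoa and 26.8 in oocytes. miR-466n-3p had 4.73 RPM in zygotes, 33.7 in PGCs, 92.8 in spermatogonia, 46.9 in spermatozoa and 3.48 in oocytes. miR-466g, which has no arm in its name, had 1.29 RPM in zygotes, 20.4 in PGCs, 69.2 in spermatogonia, 24.7 in spermatozoa and 3.98 in oocytes. miR-466d-3p had 2.41 RPM in zygotes, 24.1 in PGCs, 36.8 in spermatogonia, 29.0 in spermatozoa and 12.8 in oocytes. miR-669p-3p reached 46.5 RPM and miR-669d-5p 45.2 RPM in spermatozoa, and both were lower in the other libraries.

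**Figure D3:**
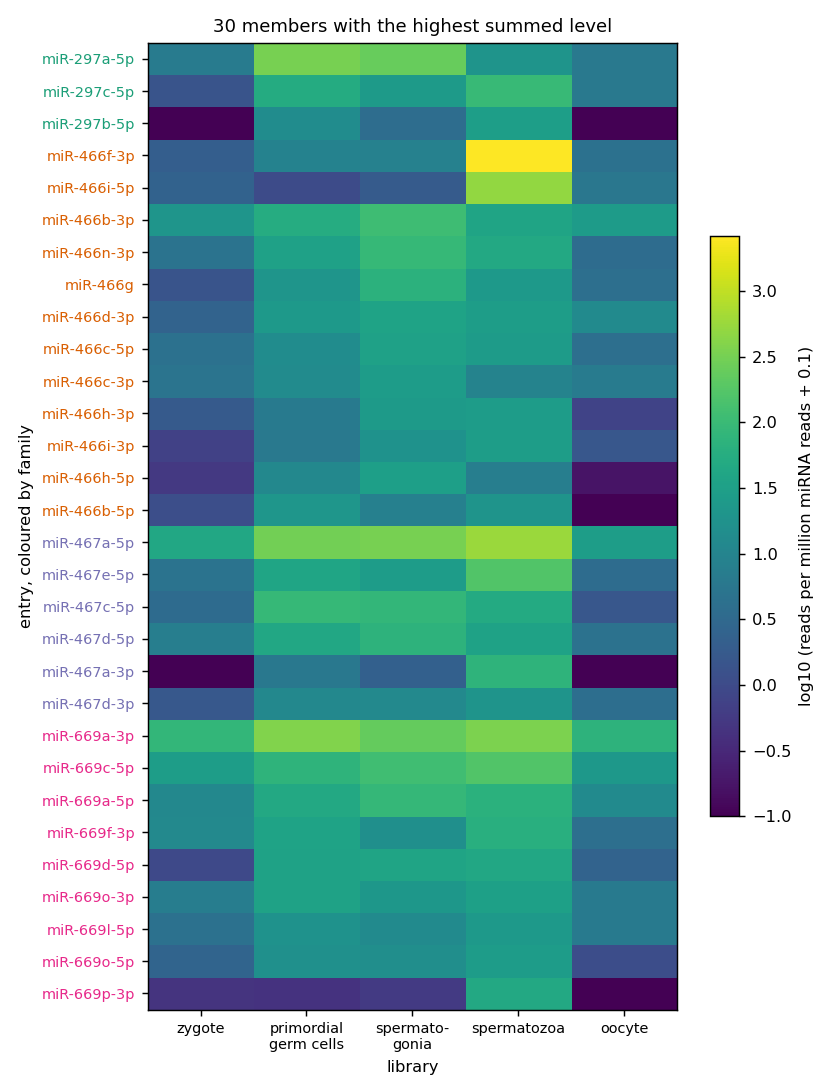
Levels of the 30 members with the highest sum over the libraries, as log10 of RPM plus 0.1, 1 row per entry and 1 column per library, with entry names coloured by family. The columns of zygote and oocyte are darker than those of PGCs and spermatogonia except for miR-466i-5p and, in the zygote column against PGCs, miR-669p-3p; miR-466f-3p and miR-466i-5p are bright in the spermatozoa column alone, and miR-297a-5p is bright in PGCs and spermatogonia and dark in spermatozoa.

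Over the 39 members with at least 100 reads in some library, 11 were highest in PGCs, 13 in spermatogonia, 15 in spermatozoa and 0 in either egg library. Read numbers in the eggs were small: 26 members had 0 reads in zygotes and 31 in oocytes, against 10 in PGCs, 12 in spermatogonia and 5 in spermatozoa. At 1.29 and 1.49 RPM for 3 reads, a member at the level of the weaker male entries would not be detectable in an egg library.

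Spermatogonia against PGCs shows the cluster between the fetal and the postnatal male germ line. Among 41 measured members, spermatogonia held 0 at least 4-fold higher, where 25.7% of all 530 measured miRNA entries were, and 2 were at least 4-fold lower, where 12.6% of all were. The median log2 ratio was -0.11 over the members and 0.65 over all measured miRNA entries. The cluster sum was 0.993-fold [0.974 to 1.01] that of PGCs in RPM. On other scales it lay lower in spermatogonia. Its log2 ratio was -0.65 by edgeR TMM factors, -0.62 by DESeq2 size factors and -0.72 by the deposited normalised values. In that order 6, 6 and 9 members were at least 4-fold lower. Each scaling moves all miRNA entries alike and their share was not counted there, so these counts do not set the members apart. In RPM the families differed in opposite directions. Of 17 measured miR-466 entries, 12 were higher in spermatogonia, with a median log2 ratio of 1.03, and the family sum was 1.79-fold higher [1.72 to 1.87]. All 3 measured miR-297 entries and 10 of 14 measured miR-669 entries were lower, with medians of -1.06 and -0.73. The 7 measured miR-467 entries had a median of -0.11. Entries of fixed-ratio groups are counted singly here. The group of miR-466b-3p, miR-466c-3p and miR-466p-3p is among the higher entries. That of miR-669a-3p and miR-669o-3p is among the lower ones, and that of miR-669a-5p and miR-669p-5p among the higher.

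The members at the ends of that comparison followed the families only in part, since miR-466 entries had the highest ratios and also the lowest. The highest ratios were those of miR-466h-3p, at 25.4 RPM in spermatogonia against 6.54 in PGCs (3.89-fold [3.03 to 5.10]), miR-466g (3.39-fold), miR-466i-3p (2.88-fold), miR-466n-3p (2.75-fold) and miR-466h-5p (2.67-fold), none of them past 4-fold. The lowest ratio was that of miR-466a-5p, which stood at 0.938 RPM in spermatogonia, against 12.7 RPM in PGCs, 13.5-fold lower [7.14 to 28.7]. Its partner miR-466a-3p had 14.3 RPM in spermatogonia and 9.46 RPM in PGCs. miR-669h-5p stood at 2.16 RPM in spermatogonia, against 17.3 RPM in PGCs, 8.03-fold lower [5.21 to 12.9]. miR-297b-5p (3.75-fold lower), miR-669a-3-3p (3.28-fold lower) and miR-669b-5p (3.12-fold lower) came next and stayed within 4-fold. With edgeR TMM factors every log2 ratio of this comparison moved by -0.64, which turned the direction of the miR-467 sum. The miR-466 sum stayed higher in spermatogonia under every scaling tried.

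Markers of other cells differed between spermatogonia and PGCs, and their part in these results was not tested. The miR-143 and miR-145a entries of smooth muscle (4 entries) summed to 233110.5 RPM in spermatogonia and 9261 RPM in PGCs, the gonadal miR-202 to 14981 RPM in spermatogonia and 1734 RPM in PGCs, and the endothelial miR-126a to 9053 RPM in spermatogonia and 1051 RPM in PGCs. The 5 entries of the erythroid miR-451a, miR-144 and miR-486 summed to 2031 RPM in spermatogonia and 213 RPM in PGCs. No entry of these 4 lists was at 0 reads in either library. The leukocyte list (7 entries) summed to 304 RPM in spermatogonia and 588 RPM in PGCs, where miR-155-3p and miR-223-5p were at 0. Most of this sum was miR-142-3p, at 195 RPM in spermatogonia and 532 RPM in PGCs. miR-150-5p ran the other way, at 48.5 and 3.25 RPM, as did miR-223-3p, at 16.7 and 2.17 RPM. The miR-200 list of epithelia (10 entries) summed to 1084 RPM in spermatogonia, with 3 entries at 0, and 1479 RPM in PGCs, with miR-200c-5p at 0. In this list both arms of miR-200b ran the other way, with miR-200b-3p at 247 RPM in spermatogonia and 212 RPM in PGCs.

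Spermatozoa against spermatogonia covers meiosis, spermiogenesis and passage through the epididymis. Among 34 measured members, spermatozoa held 4 at least 4-fold higher, where 14.9% of all 471 measured miRNA entries were, and 1 was at least 4-fold lower, where 37.2% of all were. The median log2 ratio was 0.18 over the members and -1.10 over all. Of the 34, 29 reached the minimum number of reads in spermatogonia alone and 7 in spermatozoa alone. The counts and the median thus rest mostly on members present in spermatogonia, the deeper library, and do not stand for the rest. Members that were not measured lay on both sides. miR-669p-3p stood at 46.5 RPM in spermatozoa and 0.469 RPM in spermatogonia, and miR-669f-5p at 0 and 5.44 RPM. The cluster sum was 2.82-fold higher [2.74 to 2.89] in RPM, 1.20-fold higher [1.16 to 1.25] without miR-466f-3p and miR-466i-5p, and 2.58-fold lower per 1000000 reads of all 4 classes, a scale that moves every log2 ratio of this comparison by -2.86. On that scale 26 of the 34 were at least 4-fold lower, and the share over all measured miRNA entries was not counted there. Directions between these libraries therefore hold among miRNAs only, and read here as an entry's place relative to other miRNAs.

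miR-466f-3p was 298-fold higher [242 to 369.3] in spermatozoa and miR-466i-5p 287-fold higher [182 to 479.7], with 3192 and 622 reads in spermatozoa against 94 and 19 in spermatogonia. miR-467a-3p stood at 74.3 RPM in spermatozoa, against 2.16 RPM in spermatogonia, 34.4-fold higher [21.5 to 56.8]. miR-467e-5p was 5.81-fold higher [4.83 to 6.98], and miR-669f-3p, at 61.4 RPM in spermatozoa and 16.0 RPM in spermatogonia, 3.82-fold higher. The 1 member past 4-fold in the other direction was miR-297a-5p, 12.9-fold lower in spermatozoa [8.65 to 20.6]. miR-466h-5p, at 7.59 RPM in spermatozoa and 31.0 RPM in spermatogonia, came closest to it and stayed within 4-fold once the pseudocount of 0.5 reads was added. By family, 8 of 10 measured miR-669 entries and 4 of 7 miR-467 entries were higher in spermatozoa, whereas 10 of 15 measured miR-466 entries were lower. The miR-466 sum was thus 6.49-fold higher [6.23 to 6.75] with the pair and 1.67-fold lower [1.51 to 1.87] without it. These counts are not of independent entries, and most entries became measured through spermatogonia. The group of miR-466b-3p, miR-466c-3p and miR-466p-3p is among the lower ones. That of miR-669a-3p and miR-669o-3p is among the higher ones, and that of miR-669a-5p and miR-669p-5p among the lower.

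**Figure D4:**
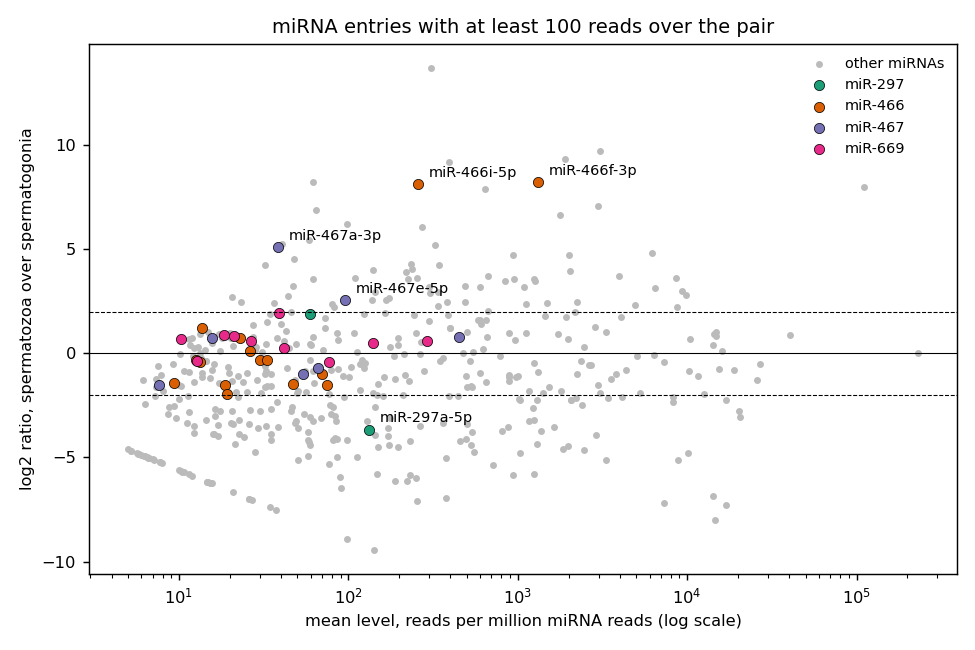
Log2 ratio of spermatozoa over spermatogonia against the mean level of the pair in RPM (log scale) for measured miRNA entries; members are coloured by family, other miRNAs grey, and dashed lines mark 4-fold. Most members lie between the dashed lines, with miR-466f-3p, miR-466i-5p, miR-467a-3p and miR-467e-5p above them and miR-297a-5p below.

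Markers of other cells also differed between spermatozoa and spermatogonia, and their part in these results was not tested. The 5 entries of 3 erythroid miRNAs, miR-451a, miR-144 and miR-486, summed to 19450.3 RPM in spermatozoa and 2031 RPM in spermatogonia, with 0 of 5 at 0 reads in either. Of these only miR-486-3p was lower in spermatozoa, at 12.3 RPM against 16.5 RPM in spermatogonia. The 7 entries of 4 leukocyte miRNAs summed to 3106 RPM in spermatozoa, where miR-155-3p was at 0, and 304 RPM in spermatogonia. The 10 entries of the miR-200 family of epithelia summed to 22968 RPM in spermatozoa and 1084 RPM in spermatogonia, where 3 of 10 were at 0 (miR-141-5p, miR-200c-5p and miR-429-5p). In the other direction, the endothelial miR-126a summed to 375 RPM in spermatozoa and 9053 RPM in spermatogonia, and the gonadal miR-202 to 102.8 and 14981 RPM in these libraries. The miR-143 and miR-145a entries of smooth muscle summed to 230783 RPM in spermatozoa and 233110.5 RPM in spermatogonia. Of the labelled cell types, only late male germ cells and fetal germ cells had a list of their own, and neither list was confined to its library. The 7 entries of miR-34b, miR-34c, miR-449a and miR-449c, known from late spermatogenesis, summed to 235991 RPM in spermatozoa, where miR-449a-3p and miR-449c-5p were at 0, and 931 RPM in spermatogonia. The 7 entries of miR-291a, miR-294, miR-295 and miR-302b, known from pluripotent and fetal germ cells, summed to 1241 RPM in spermatogonia, where miR-302b-3p was at 0, and 27620 RPM in PGCs, where 0 were. This list also summed to 8694 RPM in zygotes and 3880 RPM in oocytes. The list of late spermatogenesis summed to 3199 RPM in PGCs, 5435 RPM in zygotes and 8295 RPM in oocytes, all above spermatogonia.

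Spermatozoa against oocyte compares the gametes. In spermatozoa all 8 measured members lay at least 4-fold higher, where 26.7% of all 300 measured miRNA entries were, and 0 were at least 4-fold lower, where 26.3% were. The median log2 ratio was 4.10 over these members and -0.09 over all measured miRNA entries. Only miR-669a-3p had 100 reads in the oocyte library alone. The other 7 became measured through spermatozoa, where they are high, so the count and the median are largely set by the minimum and do not stand for the rest. The family sums, which take in every member, were 8.93-fold higher [6.12 to 13.4] for miR-297, 43.8-fold higher [37.4 to 51.7] for miR-466, 20.8-fold higher [16.8 to 26.2] for miR-467 and 7.08-fold higher [6.19 to 8.14] for miR-669. Without miR-466f-3p and miR-466i-5p the miR-466 sum was 4.52-fold higher [3.72 to 5.54], below the ratios of the other families. The cluster sum was 20.2-fold higher [18.5 to 22.1], and 8.89-fold higher [8.09 to 9.77] without miR-466f-3p and miR-466i-5p. The direction was the same on both scales, with a ratio of 24.2 per 1000000 reads of all 4 classes. The erythroid, leukocyte and epithelial marker lists summed to 428, 1414 and 9966 RPM in oocytes, below their sums in spermatozoa given above, and their part was not tested. Some entries ran the other way, among them 2 abundant ones: miR-155-5p made 1384 RPM of the leukocyte sum in oocytes and stood at 48.5 RPM in spermatozoa, and miR-200c-3p had 7404 RPM in spermatozoa and 8355 RPM in oocytes. The gonadal miR-202 was higher in oocytes, at 5723 RPM against 102.8 in spermatozoa. The miR-143 and miR-145a list was lower in oocytes, at 26563 against 230783 RPM, as was miR-126a, at 139 against 375 RPM. Apart from the pair, miR-467e-5p was 47.0-fold higher [22.4 to 118], miR-467a-5p 19.7-fold higher [15.1 to 26.2] and miR-669a-3p 4.98-fold higher [4.09 to 6.04].

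Zygote against spermatozoa asks what of the paternal gamete's profile is seen after fertilization. In zygotes all 9 measured members lay at least 4-fold lower, where 25.6% of all 308 measured miRNA entries were, and 0 were at least 4-fold higher, where 26.3% were. The median log2 ratio was -3.67 over these members and 0.13 over all measured miRNA entries. Only 2 of the 9, miR-669a-3p and miR-467a-5p, had 100 reads in the zygote library alone, and the other 7 became measured through spermatozoa, so this count and median are largely set by the minimum too. The cluster sum was 19.1-fold lower in zygotes [17.7 to 20.8], and 8.26-fold lower [7.59 to 9.01] without the pair. miR-466f-3p had 4.56 reads in zygotes against 3192 reads in spermatozoa. The smallest gap was that of miR-669a-3p, 4.24-fold lower in zygotes [3.57 to 5.06], followed by miR-669f-3p (5.10-fold lower) and miR-669c-5p (5.65-fold lower). The erythroid, leukocyte and epithelial lists summed to 330.5, 1631 and 9929 RPM in zygotes, below their sums in spermatozoa, with miR-155-5p again among the exceptions, at 1554 RPM in zygotes. The gonadal miR-202 was higher in zygotes, at 2789 RPM against 102.8 in spermatozoa. The miR-143 and miR-145a list was lower in zygotes, at 20991.5 against 230783 RPM, as was miR-126a, at 96.7 against 375 RPM. The part of these markers was not tested. With edgeR TMM factors or the deposited normalised values, 5 of the 9 were past 4-fold, and the share over all miRNA entries was not counted there.

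Zygote against oocyte asks what fertilization leaves of the maternal profile. Only 4 members were measured, and 0 were at least 4-fold higher or lower, where 2.01% and 1.34% of all measured miRNA entries were. miR-467a-5p had 44.5 RPM in zygotes and 28.9 RPM in oocytes, 1.54-fold higher [1.11 to 2.17]. miR-669c-5p was 1.26-fold higher [0.852 to 1.87], miR-669a-3p 1.17-fold higher [0.935 to 1.46] and miR-466b-3p 0.742-fold the oocyte level [0.486 to 1.11], all with intervals that include 1. The cluster sum had a ratio of 1.05 [0.940 to 1.18]. By family the sums had ratios of 0.550 [0.302 to 0.979] for miR-297, 0.688 [0.541 to 0.876] for miR-466, 1.47 [1.13 to 1.94] for miR-467 and 1.19 [1.02 to 1.40] for miR-669. In RPM the families lay on both sides of 1. With the deposited normalised values every log2 ratio of this comparison moved by 0.75, which put the cluster sum at 0.83, the miR-467 sum at 1.31 and the miR-466 sum, now higher in zygotes, at 0.22 on the log2 scale. Without miR-297a-5p the log2 ratio of the miR-297 sum was -2.18.

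Another large imprinted array, the Dlk1-Dio3 cluster of chromosome 12, and the miR-290 cluster of pluripotent cells, give a scale for these numbers. Of 47 measured Dlk1-Dio3 entries, 34 lay at least 4-fold lower in spermatozoa, against spermatogonia, and 0 higher, with a median log2 ratio of -3.58. Over all measured miRNA entries 37.2% were lower and 14.9% higher, with a median of -1.10. All 9 measured miR-290 entries were at least 4-fold lower. Of 57 measured Dlk1-Dio3 entries, 12 were at least 4-fold higher in spermatogonia than in PGCs and 1 was lower, with a median of 1.10. Over all measured miRNA entries 25.7% were higher and 12.6% lower, with a median of 0.65, so the 12 of 57 do not exceed the general share. All 14 miR-290 entries were at least 4-fold lower in spermatogonia. These lists were chosen with results of these data known, and no test was made of the difference between them and the Sfmbt2 members.

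The arm that carried the reads differed between families and, for some hairpins, between libraries. Over all members with an arm in their name, 5p entries took 47.3% of the reads in zygotes [43.4 to 51.2], 64.2% in PGCs [63.6 to 64.8], 63.8% in spermatogonia [63.2 to 64.5], 35.3% in spermatozoa [34.1 to 36.4] and 42.1% in oocytes [37.8 to 46.4]. Without miR-466f-3p and miR-466i-5p the share in spermatozoa was 61.3%. The miR-467 family was read mostly from its 5p arm, at 94.4% in zygotes, 95.02% in PGCs, 96.0% in spermatogonia, 88.3% in spermatozoa and 91.5% in oocytes. The miR-466 family was read mostly from its 3p arm, with 5p shares of 13.04% to 33.9%, and the miR-669 family was mixed, with 34.01% to 52.1%. Shares within 1 library do not depend on how libraries are scaled.

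Of 27 hairpin names with both arms listed and at least 100 reads in some library, 22 had at least 20 reads in each of the 3 male libraries. The 3p share was higher in spermatozoa than in spermatogonia in 13 of them and lower in 9. miR-466i is the abundant case: its 3p arm, printed above, took 5.30% of its reads in spermatozoa [3.74 to 7.33], against 90.7% in spermatogonia [85.9 to 94.3] and 87.0% in PGCs [77.8 to 93.3]. The 3p entry was not low in spermatozoa, with 28.6 RPM in spermatozoa, 17.5 RPM in spermatogonia and 6.06 RPM in PGCs, and the difference in share came from the 511 RPM of the 5p entry. In the eggs, on few reads, the 3p share of miR-466i was 20.5% in zygotes [0.361 to 57.9] and 21.5% in oocytes [4.66 to 50.8]. A share below that of PGCs and spermatogonia was therefore not particular to spermatozoa.

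Other hairpin names had a higher 3p share in spermatozoa. The 3p share of miR-669p was 81.0% in spermatozoa [70.3 to 89.7], against 3.09% in spermatogonia [1.01 to 7.06] and 4.23% in PGCs [1.12 to 10.1]. Its 5p entry is in a fixed-ratio group with miR-669a-5p. These shares and intervals therefore depend on how reads were divided between the 5p entries and cannot be read as those of a single hairpin. miR-669h had reads on its 3p entry only in spermatozoa, 30.2 in number, and on its 5p entry only in spermatogonia, with 23, and in PGCs, with 208. miR-467a had a 3p share of 11.6% in spermatozoa [9.36 to 14.0], 0.656% in spermatogonia [0.416 to 0.982] and 1.89% in PGCs [1.49 to 2.39]. miR-669c had one of 15.5% in spermatozoa [11.01 to 20.7], 0% in spermatogonia [0 to 0.297] and 0.998% in PGCs [0.457 to 1.89]. In spermatozoa the 3p entries of miR-467a, miR-669c and miR-669h had fractional reads (90.4, 36.4 and 30.2), so their reads may be shared with other entries. miR-467e differed the other way, with a 3p share of 6.01% in spermatozoa [3.31 to 10.3], 16.4% in spermatogonia [12.8 to 20.7] and 17.5% in PGCs [14.4 to 20.8]. Between the earlier male stages, miR-466a differed, with a 3p share of 93.8% in spermatogonia [88.9 to 97.0] and 42.8% in PGCs [36.8 to 49.0].

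**Figure D5:**
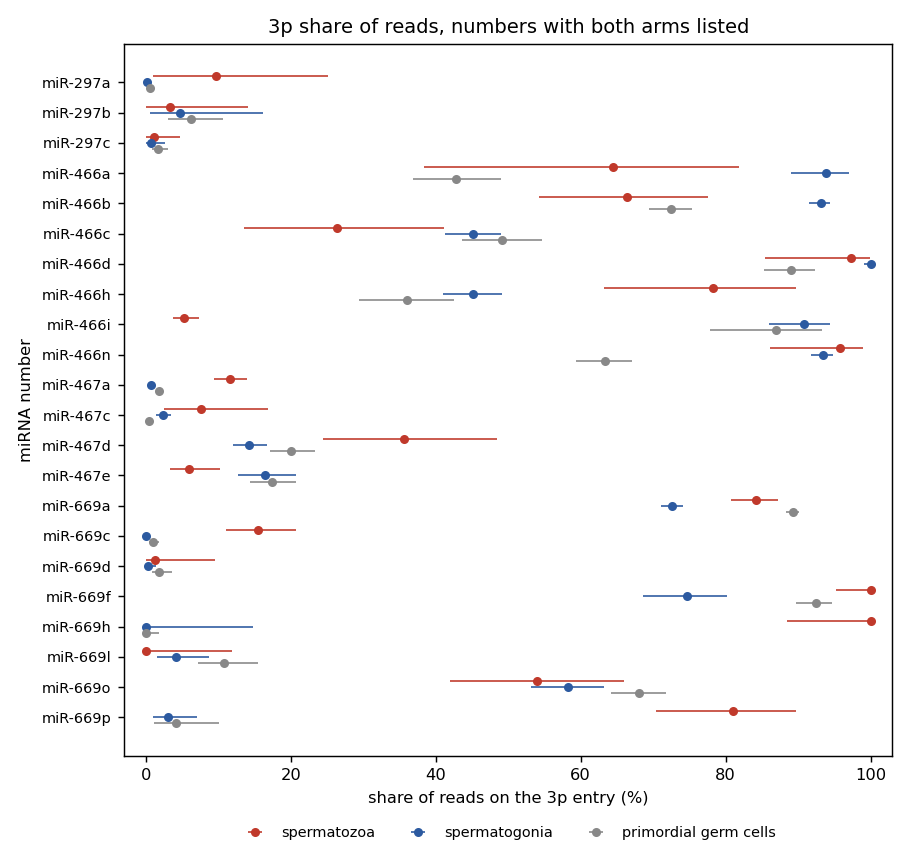
Share of a hairpin name's reads that fell on the 3p entry (percent), for 22 names with at least 20 reads in each of the 3 male libraries, in spermatozoa, spermatogonia and PGCs; lines are exact 95% intervals, counting error only. miR-466i stands at 5.30% in spermatozoa and near 90% in spermatogonia and PGCs, while miR-669h and miR-669p stand at 100% and 81.0% in spermatozoa and under 5% in the others. The shares of miR-669p depend on how reads were divided between its 5p entry and miR-669a-5p.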

How the data were processed

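Each of the 5 libraries was deposited as 4 tables, for miRNAs, snoRNAs, piRNAs and endogenous siRNAs. Per the file headers, an entry has a read number and a TMM value. As deposited, the miRNA read numbers hold fractions in all libraries but spermatogonia, and all read numbers were taken to be expected counts. The TMM column of the deposited tables was found to be a signal proportional to the reads, with a library factor of 1.37 in zygotes, 0.978 in PGCs, 0.672 in spermatogonia, 1.35 in spermatozoa and 0.937 in oocytes. Bowtie 0.12.7, DESeq and mm10 are named without roles, per the submitters' processing notes. How reads with several matches were counted is not given in the sources used. The 4 tables held 43231608 reads in zygotes, 26563078 in PGCs, 26344449 in spermatogonia, 21827067 in spermatozoa and 43242109 in oocytes, leaving out 6 snoRNA entries that name no single snoRNA. An entry absent from a table was taken as 0 reads.

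Reads were scaled to the miRNA total. For log2 ratios 0.5 reads were added as a pseudocount, entries needed 100 reads in the 2 libraries together, and those at least 4-fold apart were counted. Intervals are exact: Poisson for levels, Clopper-Pearson for shares, and conditional on the sum for ratios, after rounding to whole reads (SciPy 1.17.1). Precursors were matched by name in GENCODE vM21, miR-466a to the gene named without a letter. The ratio step was tested on simulated data. Named are members with at least 100 reads in a library, the 30 highest foremost, and the 5 highest and 5 lowest ratios per comparison. Tried as alternatives were other scalings (edgeR 4.0.16 TMM and DESeq2 1.42.0 size factors on rounded reads among them), minimums of 20 reads and 1 read, a pseudocount of 5, fixed-ratio entries counted once, and entries left out. Members and lists were chosen with earlier results of these data known.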

Additional observations from a re-analysis of the deposited data

How the results depend on the processing

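Depth limits the eggs most, where 26 and 31 members had 0 reads, and each cell type has 1 library, so no alternative stands in for a replicate. No paired analysis was possible because each cell type had 1 library. Sums by seed were not run, since mature sequences were at hand for 7 of 74 members. Scaling moves all ratios of a comparison alike, and the cause of the other changes was not tested. Shares over all miRNA entries were counted with the main settings only, so the member counts under other settings have no such share beside them. Per 1000000 reads of all 4 classes, the log2 ratio of the cluster sum was 0.29 for zygote over oocyte, 4.59 for spermatozoa over oocyte, -0.17 for spermatogonia over PGCs and -1.37, a reversal, for spermatozoa over spermatogonia, with 26 members at least 4-fold lower in the last. The sums of miR-466, miR-467 and miR-669 turned to -0.16, -2.08 and -2.20 there, and that of miR-467 to -0.10 for spermatogonia over PGCs. With the deposited normalised values the cluster sum was at 0.83 for zygote over oocyte (miR-466 turning to 0.22), -3.30 for zygote over spermatozoa with 5 members lower, 4.13 for spermatozoa over oocyte, -0.72 for spermatogonia over PGCs with 9 lower (miR-467 turning to -0.65), and -0.63, a reversal, for spermatozoa over spermatogonia with 17 lower (miR-467 and miR-669 turning to -1.35 and -1.47). With edgeR TMM factors it was at -3.60 for zygote over spermatozoa with 5 lower, 3.76 for spermatozoa over oocyte, -0.65 for spermatogonia over PGCs with 6 lower (miR-467 turning to -0.58) and 1.595 for spermatozoa over spermatogonia. With DESeq2 size factors it was at -4.06, 4.17, -0.62 with 6 lower (miR-467 turning to -0.55) and 2.06 in the same order. With totals that leave out the most abundant entries it was at -4.03, 4.05, -0.26 (miR-467 turning to -0.18) and 1.85.

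With a minimum of 20 reads, 1 member was at least 4-fold lower in zygotes than in oocytes, 28 lower in zygotes than in spermatozoa, 26 higher in spermatozoa than in oocytes, 2 higher and 4 lower in spermatogonia than in PGCs, and 8 higher and 4 lower in spermatozoa than in spermatogonia. With a minimum of 1 read these counts were 4 higher and 3 lower, 51 lower, 53 higher, 5 higher and 11 lower, and 23 higher and 4 lower. Without miR-466f-3p the cluster sum was at -3.32 for zygote over spermatozoa, 3.41 for spermatozoa over oocyte and 0.55 for spermatozoa over spermatogonia. Without miR-669a-3p it was at -4.66, 4.67 and 1.58, and at 0.12 for spermatogonia over PGCs, where the miR-669 sum turned to 0.025. Without miR-467a-5p it was at 1.601 for spermatozoa over spermatogonia. Over entries with all precursors in Sfmbt2 it was at -3.05 for zygote over spermatozoa, 3.17 for spermatozoa over oocyte, 0.057 for spermatogonia over PGCs and 0.44 for spermatozoa over spermatogonia, with 2 members higher and 0 lower in the last, where the miR-466 sum turned to -0.83 and that of miR-297 to 2.09. Without miR-297a-5p the miR-297 sum was at 2.10. Without miR-466f-3p and miR-466i-5p, chosen after seeing the data, the cluster sum was at -3.04 for zygote over spermatozoa, 3.15 for spermatozoa over oocyte and 0.27 for spermatozoa over spermatogonia, with 2 members higher and the miR-466 sum at -0.74. The share of 5p reads without miR-467a-5p was 37.5% in zygotes, 57.4% in PGCs, 56.1% in spermatogonia, 27.6% in spermatozoa and 35.0% in oocytes. Without miR-669a-3p it was 66.8%, 80.5%, 73.0%, 37.7% and 57.3% in the same order. In spermatozoa it was 68.4% without miR-466f-3p and 61.3% without that entry and miR-466i-5p. Of the remaining values of the member counts, cluster sums and arm shares, 122 changed neither side nor by more than the set margins.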

Other observations

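Over 532 other miRNA entries with at least 100 reads in all, the level of miR-130b-3p followed that of the cluster sum most closely, with 41.7 RPM in zygotes, 149 in PGCs, 171 in spermatogonia, 331 in spermatozoa and 34.8 in oocytes. Pearson's r of log2(RPM + 1) over the 5 libraries was 0.997 for it, 0.981 for miR-99a-3p, 0.977 for miR-136-3p, 0.972 for miR-883a-3p and 0.968 for miR-877-3p, as a description of 5 points that share their library totals. This order rests on miR-466f-3p and miR-466i-5p: against the cluster sum without them, r was 0.967 for miR-130b-3p, 0.9996 for miR-877-3p, 0.989 for miR-463-5p and 0.989 for miR-106b-3p. Among the members with at least 100 reads themselves, the same measure ran between 0.343 for miR-669h-5p and 0.988 for miR-467e-5p.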
